A study of Rattus norvegicus with 12 samples.

Results

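The genes described here are the autophagy machinery and the mTORC1 pathway of rat fetal liver, a list of 47 genes chosen by function. Of these, 41 had a probe that names that gene alone, and all 41 were bright enough to be tested, among 10174 genes tested and 14497 genes with such a probe on the array. The other 6 (Atg101, Ambra1, Atg4a, Atg4d, Rictor and Deptor) were not analysed here. The probe for Ambra1 also names Harbi1. Livers of Sprague Dawley fetuses were taken at day 19 of a 21 day gestation, either from dams fed ad libitum or from dams fasted for 48 hr from day 17, a diet restriction model of impaired fetal growth. From each diet, RNA of whole liver (total RNA) and RNA from pooled polysome preparations (sucrose gradient fractions, polysome RNA) was hybridised to Affymetrix Rat Gene 1.0 ST arrays. There were 3 arrays in each of the 4 groups, named here by diet and fraction (fed total, fed polysome and their fasted counterparts), and 3 dams per diet. The labels call the arrays biological replicates.

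Autophagy delivers cytoplasm and organelles to the lysosome in a double-membraned vesicle. The ULK1 kinase complex starts it, a class III phosphatidylinositol 3-kinase complex marks the membrane, and conjugation enzymes attach ATG8 proteins (the LC3 and GABARAP families) to the growing membrane, where cargo receptors bind them. mTORC1, a kinase complex activated at the lysosome by amino acids through the Rag GTPases and by insulin through the TSC complex and Rheb, holds the ULK1 complex and the transcription factor TFEB inactive when nutrients are plentiful and promotes translation. Liver is a classical tissue for starvation-induced autophagy. RNA levels do not measure autophagic flux or kinase activity.

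The results turn on the ATG8 genes and Atg10, so the 250 bases before the annotated start of Gabarapl1, 3 other ATG8 genes and Atg10 are shown from RefSeq (build GRCr8), 5′ to 3′ on the strand of the gene. They lie at chr4:164666082-164666331 (plus strand, Gabarapl1), chr10:55213215-55213464 (plus, Gabarap), chr19:56819576-56819825 (plus, Gabarapl2), chr19:66574345-66574594 (plus, Map1lc3b) and chr2:24133369-24133618 (minus, Atg10). Capitals mark the GC box GGGCGG and the forkhead core TAAACA on either strand.
Gabarapl1: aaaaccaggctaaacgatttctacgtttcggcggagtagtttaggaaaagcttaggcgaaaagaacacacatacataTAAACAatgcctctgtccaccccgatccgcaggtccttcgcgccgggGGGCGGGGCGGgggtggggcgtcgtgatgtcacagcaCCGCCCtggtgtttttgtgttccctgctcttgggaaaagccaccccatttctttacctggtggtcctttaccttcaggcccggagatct
Gabarap: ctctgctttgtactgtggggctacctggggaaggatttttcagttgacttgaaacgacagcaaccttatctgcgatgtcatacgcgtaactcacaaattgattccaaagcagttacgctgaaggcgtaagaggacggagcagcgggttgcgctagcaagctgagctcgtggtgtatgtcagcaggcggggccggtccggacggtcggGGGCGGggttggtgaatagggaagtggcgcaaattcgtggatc
Gabarapl2: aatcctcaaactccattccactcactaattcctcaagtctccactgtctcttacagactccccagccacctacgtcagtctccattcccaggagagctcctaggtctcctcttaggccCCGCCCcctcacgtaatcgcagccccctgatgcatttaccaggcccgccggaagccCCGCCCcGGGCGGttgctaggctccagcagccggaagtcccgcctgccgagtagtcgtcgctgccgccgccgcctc
Map1lc3b: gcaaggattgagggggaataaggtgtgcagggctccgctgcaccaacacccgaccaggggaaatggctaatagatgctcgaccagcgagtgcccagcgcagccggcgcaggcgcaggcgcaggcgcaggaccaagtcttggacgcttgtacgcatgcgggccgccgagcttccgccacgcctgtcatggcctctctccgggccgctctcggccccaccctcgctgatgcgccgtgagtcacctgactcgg
Atg10: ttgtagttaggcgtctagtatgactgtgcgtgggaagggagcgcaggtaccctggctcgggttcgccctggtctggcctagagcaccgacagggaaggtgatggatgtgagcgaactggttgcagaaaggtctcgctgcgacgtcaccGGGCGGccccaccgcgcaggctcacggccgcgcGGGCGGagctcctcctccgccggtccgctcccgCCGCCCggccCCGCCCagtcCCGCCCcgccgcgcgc
Among these 5 sequences, the forkhead core was found in the Gabarapl1 sequence alone, 173 bases before the start. This core was added to the search after the Gabarapl1 sequence had been read. It occurs in 12.1% of the 33469 RefSeq upstream sequences of the same length, and 3 of the 38 listed genes with such a sequence hold it (Akt1s1, Ambra1 and Gabarapl1). The longer form GTAAACA, which contains the core, was in 3.21% of all upstream sequences and in that of Akt1s1. The GC box occurred 3 times before Gabarapl1, 1 time before Gabarap, 3 times before Gabarapl2, 5 times before Atg10 and not at all before Map1lc3b. It was in 24 of the 38 listed genes and in 30.5% of all upstream sequences, whose median GC content was 51.2%, against 54.8% for Gabarapl1 and 71.2% for Atg10. The E-box CACGTG was in 5 of the 38 (Akt1s1, Atg3, Atg5, Bnip3 and Rheb) and in 5.59% of all. Its extended form TCACGTGA, the type bound by TFEB, was in that of Atg3 and in 0.657% of all. The C/EBP and ATF4 composite core TGATGNAA was in none of the 38 and in 3.40% of all. Both strands were searched for each motif. A match describes the letters in this window and no more.

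Array medians lay between 101.3 and 108.3 intensity units, and the lowest correlation between arrays of a group was 0.991. The hepatocyte markers (10 genes such as Alb and Afp) and the 12 erythroid markers measured were all above the brightness filter, and none of either list passed the test in either fasting comparison. Fetal liver is a site of blood formation. Of the 7 megakaryocyte and 9 neutrophil markers above the filter, 0 passed with limma in either fasting comparison. By fasting, 0.737% of all genes were called higher and 0.295% lower in total RNA, and 1.59% and 0.423% in polysome RNA. The summed megakaryocyte markers ran from 4889 to 5444 on fed and from 3941 to 4526 on fasted polysome arrays, without overlap. There 6 of the 7 had a change below 0, with a median of -0.26 log2. On total arrays their sums overlapped between the diets. In bulk RNA, fewer cells of a type and less RNA per cell cannot be told apart. Sums over 10 exocrine pancreas markers ran from 1062 to 3852 intensity units on fed total and 999.2 to 1069 on fasted total arrays. Of these markers 7 were above the filter, and Pnlip, Prss1 and Amy2a3 were not. The list was made after earlier results of these data had named Cpa1 and Ctrb1. Of the listed genes, Cpa1 stood at 10.10, 7.87 and 8.98 on the 3 fed total arrays and at 7.07, 7.21 and 6.72 on the fasted total arrays. Gabarapl1 is therefore also given without the highest fed total array. For Cpa1 the remaining fed total arrays still lie above the fasted total arrays, so this omission does not remove that difference between the diets.

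Maternal fasting was followed by higher Gabarapl1 in the fetal liver in both RNA fractions. Gabarapl1 is a GABARAP-family ATG8 protein. It rose 1.98-fold in total RNA and 1.91-fold in polysome RNA, whereas no other member passed the test in total RNA, and on polysomes only Atg10 did besides it. Of the 41 members, 1 was called higher and 0 lower in total RNA, where 0.737% of all tested genes were called higher and 0.295% lower. In polysome RNA 2 were called higher and 0 lower, against 1.59% and 0.423% of all genes. At an unadjusted p under 0.05, limma gave 8 of 41 in total RNA (19.5%, against 16.2% of all genes) and 15 of 41 in polysome RNA (36.6%, against 20.9%). The median change of the members was 0.07 log2 in total RNA and 0.08 log2 in polysome RNA, beside 0.00 and 0.02 over all genes. In total RNA 29 of the 41 changes were above 0, and in polysome RNA 27 were.

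The levels that follow are log2(intensity + 1), given in the order of replicates 1, 2 and 3. Gabarapl1 was at 10.06, 10.39 and 10.05 in fed total RNA and at 11.43, 11.25 and 10.78 in fasted total RNA. It was at 9.85, 10.15 and 10.24 in fed polysome RNA and at 10.88, 11.20 and 10.97 in fasted polysome RNA. Every fasted array was above every fed array of its fraction, and the fed and fasted groups did not overlap. In total RNA the difference was 0.99 ± 0.16 log2 (SE; 95% interval 0.64 to 1.33; limma adjusted p = 0.0151). In polysome RNA it was 0.93 ± 0.16 (interval 0.59 to 1.28; limma adjusted p = 0.0198). The polysome effect minus the total effect was -0.05 (interval -0.54 to 0.44). That difference did not pass the test, and its interval includes changes of either sign. Fold changes are on the scale of log2(intensity + 1). Signal that related ATG8 transcripts may give on this probe was not tested.

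The direction of the Gabarapl1 change held with each array left out, but the adjusted p did not always pass. In total RNA the limma adjusted p was 0.0649 without fed total 1, 0.0526 without fed total 3, 0.0612 without fasted total 1 and 0.067 without fasted total 2. In polysome RNA the limma adjusted p was 0.0634 without fed polysome 2, 0.0621 without fasted polysome 1 and 0.0799 without fasted polysome 3. With fed total 1, the array with the most Cpa1 signal, left out, the total RNA difference was 0.93 log2. In total RNA the summed endothelial markers moved with fasting too. Their sum over 9 markers, all above the filter, ran from 6167 to 6790 on fed arrays and from 7677 to 7753 on fasted arrays, and 3 of the 9 (Pecam1, Esam and Fcgr2b) were called higher. The 11 macrophage markers summed to 8919 to 9369 on fed and 9862 to 11057 on fasted total arrays, with 0 called. On polysome arrays the endothelial sums were 4182 to 4330 in the fed and 4548 to 4844 in the fasted group, with 1 of 9 markers called higher. The macrophage sums there were 6459 to 6753 and 7458 to 7765, with 2 of 11 called higher. The part of these cells in the Gabarapl1 result was not tested in either fraction.

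**Figure D1:**
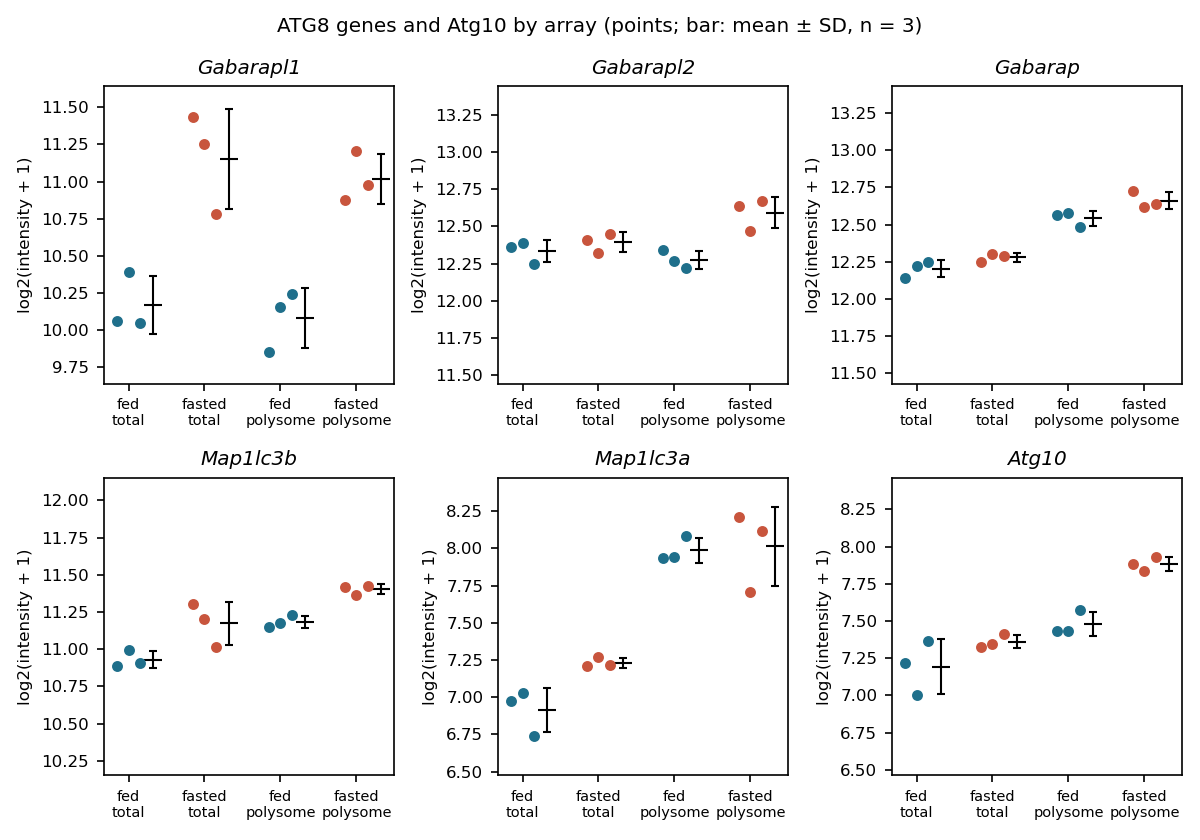
Level of the 5 ATG8 genes and of Atg10 on each array, as log2(intensity + 1), with 1 point per array, the 4 groups along the x axis and the mean ± SD of 3 arrays beside them. Each panel spans 2 log2 units. Gabarapl1 on fasted arrays lies at 10.78 or above, over all fed arrays, while Map1lc3a separates by RNA fraction instead.

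The other ATG8 genes moved less. Map1lc3b, which encodes LC3B, the usual marker of autophagosomes, stood 0.25 ± 0.078 log2 higher in fasted total RNA (limma adjusted p = 0.141) and 0.22 higher in fasted polysome RNA (limma adjusted p = 0.138), neither past the threshold. A dimmer probe of the same gene gave 0.50 log2 in polysome RNA (limma adjusted p = 0.0214, with probes fitted singly), so the 2 probes of Map1lc3b differed in their call. Map1lc3a, encoding LC3A, had differences of 0.32 in total and 0.02 in polysome RNA. Gabarap, the founding member of its family, had 0.08 and 0.12. Gabarapl2, also called GATE-16, had 0.06 in total RNA and 0.32 ± 0.076 in polysome RNA, which missed the threshold (limma adjusted p = 0.0511, and 0.0466 with the liver as a random replicate block). It passed without fed polysome 1 (0.0378) and without fasted polysome 2 (0.0203) by limma adjusted p. Its dimmer probe gave 0.03.

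Atg10 is the E2-like enzyme that passes ATG12 to ATG5. It stood at 7.43, 7.43 and 7.57 in fed polysome RNA and at 7.89, 7.83 and 7.93 in fasted polysome RNA, and these groups did not overlap. In total RNA it was at 7.22, 6.9997 and 7.36 in the fed group and at 7.33, 7.34 and 7.41 in the fasted group, which overlapped. On polysomes the gene rose 1.32-fold (0.40 ± 0.089 log2, limma adjusted p = 0.0417). In total RNA the difference was 0.17 ± 0.089 (limma adjusted p = 0.381). The polysome effect exceeded the total effect by 0.24 (interval -0.04 to 0.51), which did not pass. The call was lost without any 1 of 7 arrays: by limma adjusted p it was 0.128 without fed polysome 2, 0.0711 without fed polysome 3, 0.135 without fasted polysome 1 and 0.136 without fasted polysome 3. Leaving out fed total 1 (0.0543), fasted total 1 (0.0548) or fasted total 2 (0.0534), which are not in the contrast but share its estimate of spread, also took the limma adjusted p past 0.05.

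The rest of the conjugation system showed no call in either fraction. Atg7, the E1-like enzyme, Atg3, the E2 for ATG8 proteins, and Atg5, Atg12 and Atg16l1, which form the complex that directs ATG8 to the membrane, had fasting differences between -0.13 and 0.16 log2. The ATG8 proteases Atg4b and Atg4c had 0.20 and 0.23 in total RNA and -0.01 and 0.28 in polysome RNA. Atg4b varied most between arrays of a group, for instance 9.01, 9.53 and 9.88 in fasted total RNA.

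None of the 5 cargo receptors passed in either fraction. Sqstm1 (p62), which binds ubiquitinated cargo and LC3, was at 11.37, 11.29 and 11.35 on fed total arrays and at 11.89, 11.69 and 11.60 on fasted total arrays, so the groups did not overlap. Its difference was 0.39 ± 0.091 log2 in total RNA (limma adjusted p = 0.0577) and 0.29 in polysome RNA (limma adjusted p = 0.104). With trend and robust priors in limma the first became an adjusted p of 0.035. Nbr1, a receptor of related structure, had 0.31 in total RNA (limma adjusted p = 0.0969) and 0.12 in polysome RNA. Bnip3, a mitochondrial receptor induced by low oxygen, had 0.26 and 0.25, and its second probe 0.21 and 0.23. Its relative Bnip3l (NIX), which clears mitochondria from maturing red cells, had -0.02 (interval -0.17 to 0.13) and 0.00 (interval -0.14 to 0.15). Optn, a receptor for damaged mitochondria and bacteria, had 0.05 and 0.03.

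Among the initiation genes none was called. Ulk1, the starting kinase, its paralog Ulk2, the adaptor Atg13 and the scaffold Rb1cc1 (FIP200) had total RNA differences of 0.20, 0.04, 0.19 and 0.22 log2. In polysome RNA they had 0.05, 0.15, -0.13 and 0.16. For Rb1cc1 the dimmer probe gave -0.27 in polysome RNA and the mean of its probes -0.06, so its sign there depends on the probe. In the class III kinase complex, the catalytic subunit Pik3c3 (VPS34) had 0.12 and -0.01, and the scaffold Becn1 (Beclin 1) had -0.09 and -0.25. The targeting subunit Atg14 had -0.04 and 0.30, and Uvrag, its alternative partner, 0.10 and 0.22. Becn1 passed in polysome RNA without fed polysome 1, at -0.37 log2 (limma adjusted p = 0.0304).

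On polysomes 4 members stood lower in fasted livers at unadjusted limma p values under 0.01, while none passed after adjustment. The share of all genes lower at that cutoff was not computed. At an unadjusted p under 0.05, limma gave 15 of 41 members and 20.9% of all genes in either direction. Pik3r4 (VPS15), the regulatory subunit of VPS34, was at 8.50, 8.67 and 8.79 in fed polysome RNA and at 8.18, 8.45 and 8.26 in fasted polysome RNA. Its difference was -0.36 ± 0.09 log2 (limma adjusted p = 0.0552). The 4 also include Atg9a, the lipid scramblase of the vesicles that seed the membrane (-0.25, limma adjusted p = 0.0682), Mtor, the kinase itself (-0.26, limma adjusted p = 0.0952), and Rptor, which recruits its substrates (-0.25, limma adjusted p = 0.116). In total RNA they stood at -0.03, 0.07, -0.05 and 0.01. The smallest p values on polysomes went in both directions. Gabarapl1, Atg10, Gabarapl2 and Sqstm1, which stood higher, had smaller limma adjusted p than Rptor (0.0198, 0.0417, 0.0511 and 0.104).

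The values of Pik3r4, Mtor and Rptor hang on particular polysome arrays. Without fasted polysome 2, limma gave adjusted p = 0.0215 for Pik3r4, 0.0411 for Mtor and 0.0409 for Rptor. Without fed polysome 1 it gave 0.0251 for Pik3r4. The other TOR and GTPase members had smaller changes in polysome RNA. Mlst8, a subunit of both mTOR complexes, and Akt1s1 (PRAS40), an inhibitor of mTORC1, had 0.12 and 0.14. Tsc1 and Tsc2, which turn Rheb off, had -0.15 and -0.04, Rheb itself had 0.15, and the Rag GTPases Rraga and Rragc had -0.11 and 0.22. In total RNA these 7 lay between -0.09 and 0.12. Tfeb, which drives lysosomal and autophagy genes, had -0.03 (interval -0.21 to 0.15) and 0.08 (interval -0.10 to 0.26). The remaining membrane genes were also not called: Vmp1, an endoplasmic reticulum scramblase, had 0.04 and 0.01, Wipi1 had -0.13 and 0.19, and Wipi2 had 0.10 and -0.02. Wipi1 and Wipi2 read the phosphatidylinositol 3-phosphate mark.

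**Figure D2:**
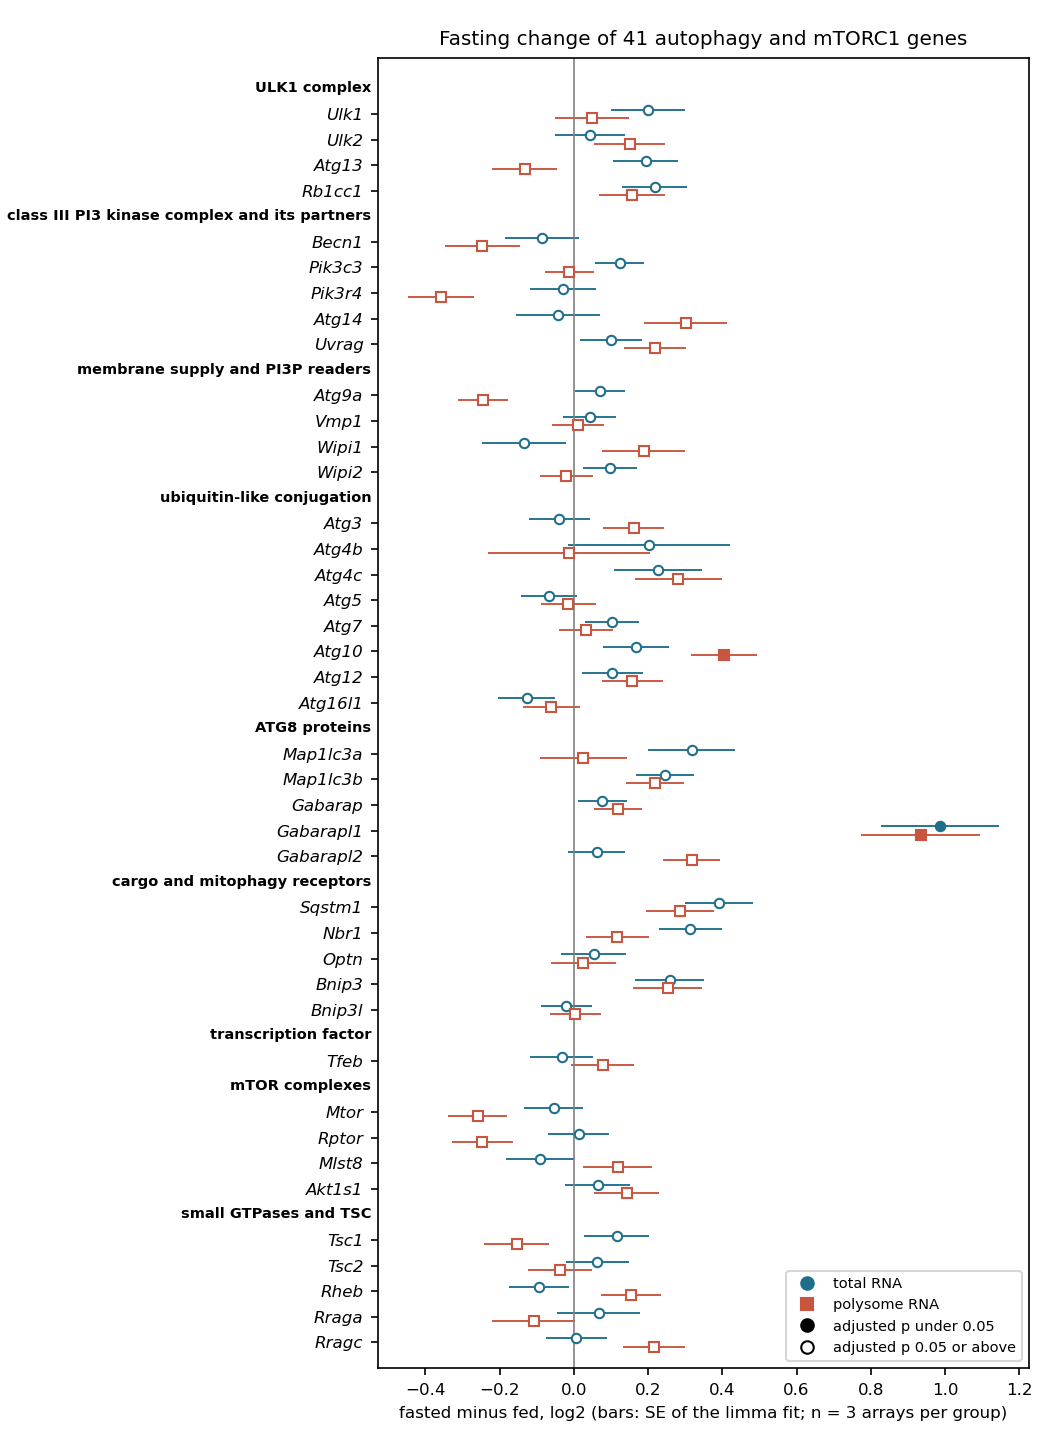
Fasted minus fed difference (x axis, log2) of the 41 members by role, in total RNA (circles) and polysome RNA (squares), with bars for the SE of the limma fit and filled symbols where the adjusted p is under 0.05. The filled symbols are Gabarapl1 in both fractions (0.99 and 0.93) and Atg10 in polysome RNA (0.40).

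A test of whether fasting acted differently in the 2 fractions called 0 of the 41 members and 0% of all tested genes (0 of 10174) by limma. At an unadjusted p under 0.05 it gave 8 of 41 members (19.5%) and 549 genes in all (5.40%). The labels give 3 dams per diet for both fractions, so the fasting effects do not come from independent animals. The smallest unadjusted p among the members was for Atg9a, with polysome minus total effect of -0.32 ± 0.095 log2 (interval -0.52 to -0.11; limma adjusted p = 0.856). Atg9a was at 9.97, 9.97 and 9.87 in fed total and 10.02, 9.99 and 10.01 in fasted total RNA. On polysomes it was at 10.11, 10.01 and 9.94 in the fed and 9.78, 9.80 and 9.74 in the fasted group. Fasted polysome arrays were thus below all others for this gene. Atg13 had -0.33 ± 0.12 (limma adjusted p = 0.856) and Pik3r4 -0.33 ± 0.13 (limma adjusted p = 0.856). None of the 3 passes.

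More members were called between the RNA fractions than between the diets. In fed livers 16 of 41 members were called higher in polysome than in total RNA and 2 lower, where 24.1% of all tested genes were higher and 19.4% lower. In fasted livers 14 were higher and 5 lower, against 25.5% and 18.2%. The members' median difference was 0.17 log2 in fed and 0.19 log2 in fasted livers, beside 0.04 and 0.05 over all genes. Called higher in both diets were Becn1, Atg5, Atg10, Atg12, Atg16l1, Map1lc3a, Map1lc3b, Gabarap, Akt1s1, Tsc1 and Tsc2, and lower in both were Vmp1 and Atg3. The share of all genes called in both diets was not computed, so these names carry no comparison with the other genes. Polysome and total RNA were extracted by different methods, so fraction and extraction cannot be told apart in these comparisons. They share their arrays with the fasting comparisons. Markers of non-parenchymal cells were lower in polysome RNA too: in fed livers 8 of 8 stellate, 6 of 9 endothelial and 7 of 11 macrophage markers were called lower, with medians of -0.84, -0.59 and -0.68 log2, and 6 of 10 hepatocyte markers with a median of -0.20. The summed stellate markers ran from 4091 to 5075 on fed total and from 1988 to 2388 on fed polysome arrays. The part of these in the members' values was not tested.

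The largest polysome excess was that of Map1lc3a. It was at 6.97, 7.03 and 6.74 in fed total RNA and at 7.93, 7.94 and 8.09 in fed polysome RNA. In fasted livers it was at 7.21, 7.27 and 7.22 in total RNA and at 8.21, 7.71 and 8.12 in polysome RNA. No polysome array overlapped a total array of its diet. The difference was 1.07 ± 0.12 log2 in fed livers (2.11-fold, limma adjusted p = 1.5e-05) and 0.78 ± 0.12 in fasted livers (1.72-fold, limma adjusted p = 0.000157). Among the other ATG8 genes Gabarap had 0.34 and 0.38 log2 and Map1lc3b 0.25 and 0.23, while Gabarapl1 had -0.08 and -0.14. The brightest Gabarapl2 probe gave -0.06 and 0.20, but its dimmer probe gave 0.75 and 0.71 (limma adjusted p = 0.000285 and 0.000437, probes fitted singly), so for Gabarapl2 the choice of probe decides. For Map1lc3b the dimmer probe gave -0.17 and 0.13, and with the mean of its probes both calls were lost, at 0.04 in fed livers (limma adjusted p = 0.689) and 0.18 in fasted livers (limma adjusted p = 0.0798). The Map1lc3b call was lost without fed polysome 3 (limma adjusted p = 0.055), fed total 1 (0.0633) or fed total 3 (0.0539) in fed livers. In fasted livers it was lost without fasted polysome 1 (0.0782), fasted polysome 3 (0.0848), fasted total 2 (0.0528) or fasted total 3 (0.144).

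The opposite pattern was shown by Vmp1 and Atg3. Vmp1 was at 10.38, 10.51 and 10.39 in fed total RNA and at 9.79, 9.75 and 9.74 in fed polysome RNA. In fasted livers it was at 10.48, 10.48 and 10.45 in total RNA and at 9.88, 9.76 and 9.68 in polysome RNA. It was lower on polysomes by a steady amount, with -0.67 ± 0.071 log2 in fed livers (1.59-fold lower, limma adjusted p = 1.22e-05) and -0.70 ± 0.071 in fasted livers (limma adjusted p = 8.14e-06). Atg3 was at 10.97, 10.86 and 10.97 in fed total and 10.34, 10.46 and 10.41 in fed polysome RNA, and at 10.91, 10.83 and 10.95 in fasted total and 10.66, 10.39 and 10.64 in fasted polysome RNA. Its difference was -0.53 ± 0.082 in fed livers (limma adjusted p = 0.000207) and -0.33 ± 0.082 in fasted livers (limma adjusted p = 0.00542). Polysome arrays lay below total arrays for both genes in both diets.

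Most conjugation genes lay on the other side of 0 from Atg3. Atg5 was higher on polysomes by 0.43 log2 in fed livers (limma adjusted p = 0.00048) and by 0.49 in fasted livers (limma adjusted p = 0.000204). Atg12 had 0.26 and 0.31, Atg16l1 had 0.25 and 0.32, and Atg10 had 0.29 (limma adjusted p = 0.019) and 0.52 ± 0.089 (limma adjusted p = 0.000414). Atg7 was called only in fed livers, at 0.21, and its difference between diets did not pass. Atg4b (0.35 in fed and 0.14 in fasted livers) and Atg4c (-0.03 and 0.02) were not called, nor was the membrane gene Wipi2 (0.16 and 0.05). In fed livers single arrays ended some of these calls by limma adjusted p. For Atg10 these were fed polysome 3 (0.072) and fed total 2 (0.0956), and for Atg16l1 fed polysome 2 (0.0832) and fed total 3 (0.057). For Atg12 they were fed polysome 2 (0.0867), fed polysome 3 (0.0563), fed total 1 (0.0505) and fed total 2 (0.0745). For Atg7 they were fed polysome 2 (0.091), fed polysome 3 (0.0585), fed total 2 (0.0773) and fed total 3 (0.0974).

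Of the initiation genes, Atg13 was at 8.996, 8.87 and 8.98 in fed total RNA and at 9.37, 9.49 and 9.51 in fed polysome RNA, with no overlap. Its difference was 0.51 ± 0.088 log2 in fed livers (limma adjusted p = 0.000429). In fasted livers it was 0.19 and did not pass. Ulk1 had 0.39 in fed livers (limma adjusted p = 0.00649) and 0.24 in fasted livers (limma adjusted p = 0.0696). Ulk2 had 0.17 and 0.27, the latter called (limma adjusted p = 0.0321) but lost without fasted polysome 1 (0.0559), fasted polysome 3 (0.139), fasted total 1 (0.0989) or fasted total 2 (0.0794). Rb1cc1 had 0.07 and 0.01, although its dimmer probe gave 0.57 in fed livers (limma adjusted p = 0.000373, probes fitted singly).

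Becn1 was at 8.67, 8.92 and 8.80 in fed total RNA and at 9.05, 9.39 and 9.46 in fed polysome RNA. All fed polysome arrays were above all fed total arrays, by 0.50 ± 0.1 log2 on average (limma adjusted p = 0.0013). In fasted livers the difference was 0.34 (limma adjusted p = 0.0138, and 0.0506 without fasted polysome 3). Its partners differed: Pik3r4 had 0.00 in fed and -0.33 ± 0.09 in fasted livers (limma adjusted p = 0.00951), with fasted total arrays at 8.67, 8.58 and 8.63 and fasted polysome arrays, given above, all below them. Pik3c3, Atg14 and Uvrag were not called in either diet. Among the membrane genes, Wipi1 was at 9.64, 10.07 and 10.08 in fasted total RNA and at 10.62, 10.35 and 10.43 in fasted polysome RNA, without overlap. That difference was 0.54 ± 0.11 (limma adjusted p = 0.00167), beside 0.22 in fed livers, which did not pass. Atg9a was lower on polysomes in fasted livers by -0.24 (limma adjusted p = 0.0121) and had 0.08 in fed livers. That an effect passes in one diet and not in the other does not show that the diets differ. The tests of that difference, given above, called none.

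In the mTORC1 pathway the polysome excess was found in several components. Tsc1 was at 9.22, 9.28 and 9.15 in fed total RNA and at 9.68, 9.74 and 9.83 in fed polysome RNA, which do not overlap, with a difference of 0.53 ± 0.087 log2 (limma adjusted p = 0.000324). In fasted livers it had 0.26 (limma adjusted p = 0.0275), lost without fasted polysome 3 (0.123) or fasted total 2 (0.125). Tsc2 had 0.38 in fed and 0.28 in fasted livers, the latter lost by limma adjusted p without fasted polysome 1 (0.0547) or fasted total 1 (0.0702). Akt1s1 was at 9.19, 9.34 and 9.23 in fasted total RNA and at 9.93, 9.64 and 9.71 in fasted polysome RNA. Its fasted polysome arrays were all above, by 0.51 ± 0.087 (limma adjusted p = 0.000419), and in fed livers the difference was 0.43. Rptor had 0.45 in fed livers (limma adjusted p = 0.000704) and 0.19 in fasted livers (limma adjusted p = 0.0792), and Mtor had 0.35 (limma adjusted p = 0.00325) and 0.14.

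Mlst8 was called in fasted livers alone, at 0.27 (limma adjusted p = 0.0309). The call was lost without fasted polysome 1 (0.0964), fasted polysome 3 (0.0864), fasted total 1 (0.104) or fasted total 3 (0.0835). Rraga, one of the Rag GTPases, was at 9.01, 8.84 and 9.14 in fasted total RNA and at 8.50, 8.50 and 8.70 in fasted polysome RNA. All fasted polysome arrays were lower, by -0.43 ± 0.11 log2 on average (limma adjusted p = 0.00679), beside -0.26 in fed livers, which did not pass. Rragc, Rheb and Tfeb were not called in either diet, nor were the 5 cargo receptors, whose medians were 0.05 in fed and 0.06 in fasted livers. Taking same-numbered total and polysome arrays of a diet as 1 liver, in a random replicate block, added calls and removed none. In fasted livers Rragc (limma adjusted p = 0.0388), Rheb (0.0489), Rptor (0.0466), Ulk1 (0.046), Atg14 (0.0251), Gabarapl2 (0.0227) and Bnip3 (0.0478) were then called higher on polysomes. Sqstm1 was then called lower on polysomes in fasted livers, by -0.23 log2 (limma adjusted p = 0.023). In fed livers Bnip3 was added as higher (limma adjusted p = 0.0425) and Rraga as lower (0.0369). By quantile normalization the members called in fasted livers became 10 higher and 7 lower, and with arrays centred on their medians 18 higher and 5 lower. In fed livers these gave 15 and 3, and 16 and 2. The counts over all genes shifted with the scaling too. In fasted livers 2330 were higher and 1979 lower by quantile normalization, and 2941 and 1590 with centring, beside 2590 and 1856 in the main fit. In fed livers the counts over all genes were 2374 and 2090, and 2671 and 1744, beside 2451 and 1974.

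**Figure D3:**
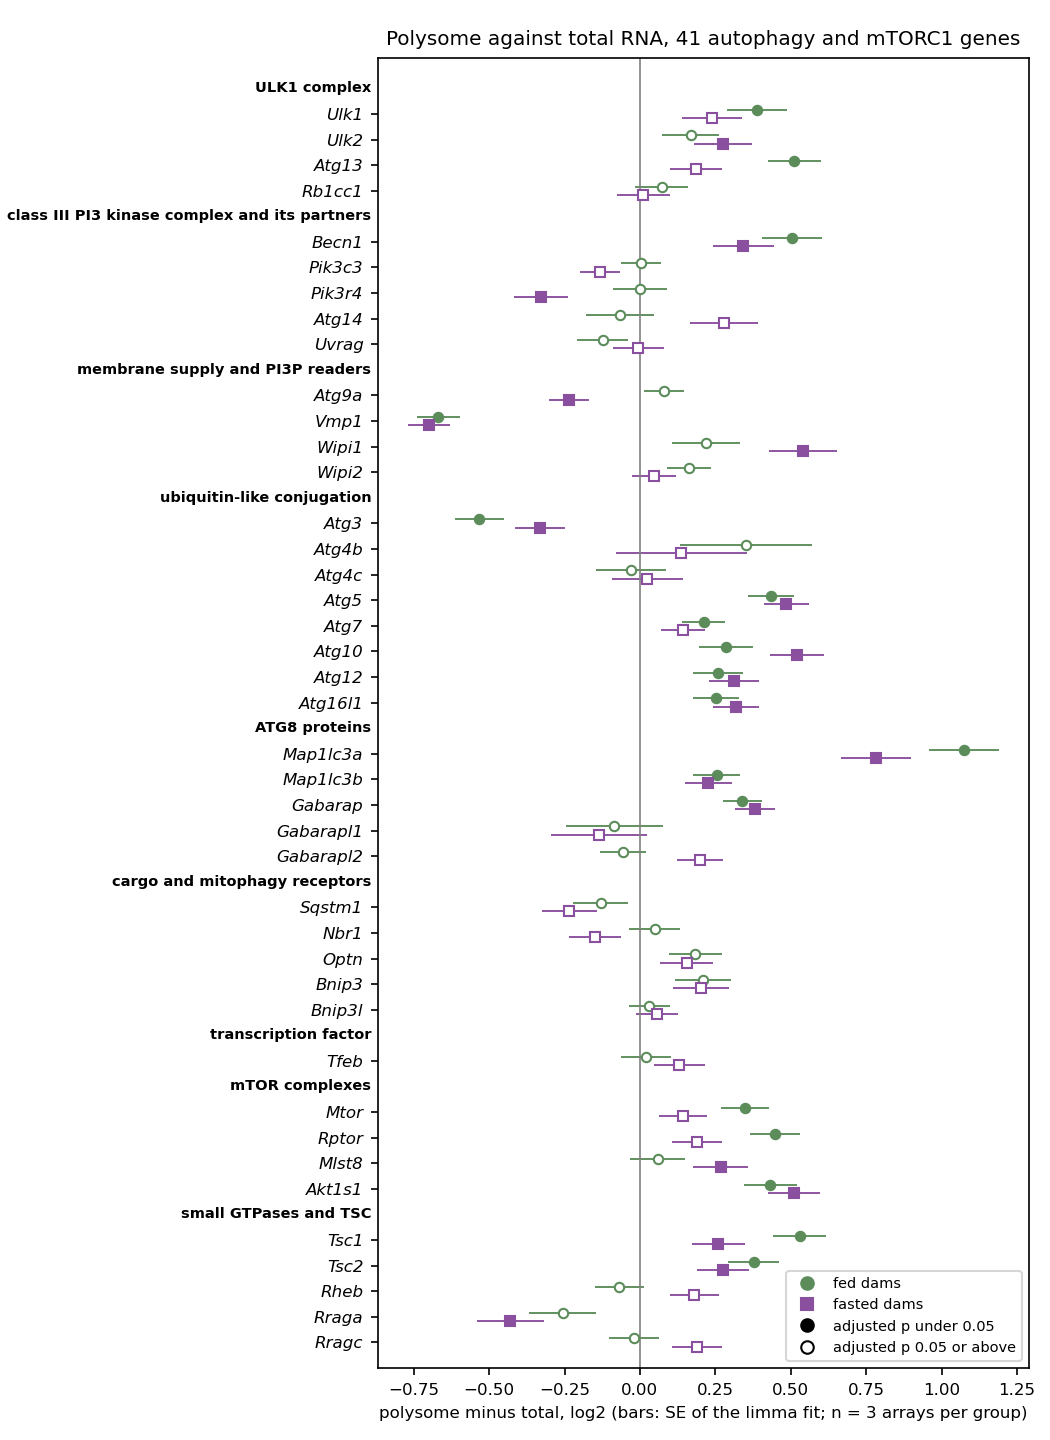
Polysome minus total RNA (x axis, log2) of the 41 members by role, in fed dams (circles) and fasted dams (squares), with bars for the SE of the limma fit and filled symbols where the adjusted p is under 0.05. Map1lc3a lies farthest to the right (1.07 and 0.78) and Vmp1 farthest to the left (-0.67 and -0.70).

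Further genes of the same pathways were taken from 5 lists. Of 14 other selective autophagy receptors, 2 were called higher with fasting in both fractions. Of all tested genes 0.737% were called higher in total RNA and 1.59% in polysome RNA, and the share called in both was not computed. Calcoco1, a receptor for the endoplasmic reticulum, was at 9.29, 9.26 and 9.23 on fed total and at 9.96, 9.87 and 9.93 on fasted total arrays. On polysomes it was at 8.61, 8.64 and 8.91 in the fed and at 9.31, 9.18 and 9.26 in the fasted group. Neither pair of groups overlapped. The rise was 0.66 ± 0.083 log2 in total RNA (1.58-fold, limma adjusted p = 0.00289) and 0.53 in polysome RNA (limma adjusted p = 0.0139). Pink1, the kinase that marks damaged mitochondria for removal, was at 9.39, 9.45 and 9.19 on fed total and at 9.91, 9.95 and 9.92 on fasted total arrays, again without overlap. It rose by 0.58 ± 0.075 in total RNA (limma adjusted p = 0.00289) and by 0.50 in polysome RNA (limma adjusted p = 0.0126).

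In total RNA both calls held with each of the 12 arrays left out, at limma adjusted p of up to 0.0181 for Calcoco1 and 0.0171 for Pink1. Both were lost with the replicate number as a fixed block (limma adjusted p = 0.0569 for Calcoco1 and 0.088 for Pink1). In polysome RNA Calcoco1 lost its call without fed polysome 2 (limma adjusted p = 0.0634), fasted polysome 1 (0.0621) or fasted polysome 3 (0.0657). With only the arrays compared, Calcoco1 lost it too (limma adjusted p = 0.0749). Pink1 lost its polysome call without fed polysome 2 (limma adjusted p = 0.0556) or fasted polysome 3 (0.0638). Between the fractions the 2 genes went opposite ways. In fed livers Calcoco1 was lower on polysomes by -0.54 log2 (limma adjusted p = 0.000202), and Pink1 was higher by 0.45 (limma adjusted p = 0.000312).

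Of 18 other autophagy genes, 1 was called higher in total RNA and 3 in polysome RNA, beside 0.737% and 1.59% of all tested genes. Wdr45 (WIPI4), which binds the lipid transfer protein ATG2, rose by 0.41 ± 0.069 log2 in total RNA (limma adjusted p = 0.0181) and by 0.37 in polysome RNA (limma adjusted p = 0.024). It was at 10.38, 10.36 and 10.29 on fed total and at 10.75, 10.82 and 10.68 on fasted total arrays, with no overlap. Its call failed in 4 of 12 omissions in each fraction: without fed total 1 (limma adjusted p = 0.0617), fed total 3 (0.0597), fasted total 1 (0.068) or fasted total 2 (0.0687) in total RNA. In polysome RNA it failed without fed polysome 2 (0.0795), fed polysome 3 (0.0649), fasted polysome 1 (0.104) or fasted polysome 3 (0.0986). In both fractions it was also lost with only the arrays compared and with the replicate number as a fixed block. Tp53inp1, an ATG8-binding p53 target, and Bcl2, which binds Beclin 1, rose in polysome RNA, by 0.56 (limma adjusted p = 0.0417) and 0.36 (limma adjusted p = 0.0435). In total RNA they stood at 0.28 and -0.01, and the test of the difference between the fractions passed for neither. Both genes lost their polysome call without a filter, with only the arrays compared and with the replicate number as a fixed block. Each kept its call in 3 of 12 omissions (fed polysome 1, fasted polysome 2 and fasted total 3) and lost it without any of the other 9 arrays, with a limma adjusted p of up to 0.147 for Tp53inp1 (without fasted polysome 1) and 0.154 for Bcl2 (without fasted polysome 3).

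No gene was called in either fasting comparison among 20 nutrient sensors upstream of mTORC1 or among 32 kinases and targets around mTOR. The limma test gave, at an unadjusted p under 0.05, 3 of 20 in each fraction for the first, and 1 of 32 in total and 7 of 32 in polysome RNA for the second, beside 16.2% and 20.9% of all genes in total and polysome RNA. Of 27 genes of the TFEB family and the lysosome, 0 were called in total RNA and 1 in polysome RNA. That gene was Lamp2, a lysosomal membrane protein, at 11.09, 11.11 and 11.15 in fed and 11.64, 11.48 and 11.49 in fasted polysome RNA. It rose by 0.42 ± 0.071 log2 (limma adjusted p = 0.0198) without overlap of the groups, and lost its call without fed polysome 2 (0.0634), fasted polysome 1 (0.0838) or fasted polysome 3 (0.0638). The Lamp2 call was also lost with only the arrays compared (limma adjusted p = 0.0768) and with the replicate number as a fixed block (0.0716). Also called higher in fasted polysome RNA were 2 of 11 macrophage markers (Cd68 and C1qb), 2 of 8 stellate markers (Dcn and Lrat) and 1 of 9 endothelial markers (Fcgr2b). Of all genes 1.59% were called higher there. In each of these lists 2 markers had a change below 0. The macrophage and endothelial sums on polysome arrays, given beside Gabarapl1, did not overlap between the diets. The stellate sums did, at 1988 to 2388 in the fed and 2194 to 2513 in the fasted group. The part of those cells in the Lamp2 result was not tested.

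Between the fractions, the lysosome list went against the autophagy members. Of its 27 genes, 16 were lower and 2 higher on polysomes in fed livers, and 17 lower and 3 higher in fasted livers, with medians of -0.38 and -0.40 log2. Of all tested genes 24.1% were higher and 19.4% lower in fed livers, and 25.5% and 18.2% in fasted livers, and the counts of each list below stand beside these. The macrophage, endothelial and stellate markers given above were lower on polysomes as well, with medians of -0.68, -0.59 and -0.84 in fed livers, and their part in the lysosome values was not tested. Ctsl (cathepsin L, a lysosomal protease) had -1.23 and -1.17, Lamp2 had -1.14 and -0.90, and Npc1, a lysosomal cholesterol transporter, had -0.91 and -1.13. Among the other autophagy genes 10 were higher and 3 lower in fed livers and 10 and 1 in fasted livers. They ran from Vamp8, the SNARE that fuses autophagosomes with lysosomes (1.17 and 1.09), to Tmem41b, an endoplasmic reticulum scramblase that works with VMP1 (-0.94 and -0.75). Of the nutrient sensors 5 were higher and 2 lower in fed livers, and 6 and 2 in fasted livers. Castor2, of the CASTOR arginine sensor family, had 0.65 and 0.92, and the lysosomal arginine sensor Slc38a9 had -0.56 and -0.54. Around mTOR, 11 of 32 genes were higher and 0 lower in fed livers, and 10 and 3 in fasted livers. Irs1, the insulin receptor substrate, had 0.78 and 0.59, and the insulin receptor Insr was lower in fasted livers by -0.42. Of the selective receptors, 2 were higher and 4 lower in fed livers, and 3 and 5 in fasted livers.

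**Figure D4:**
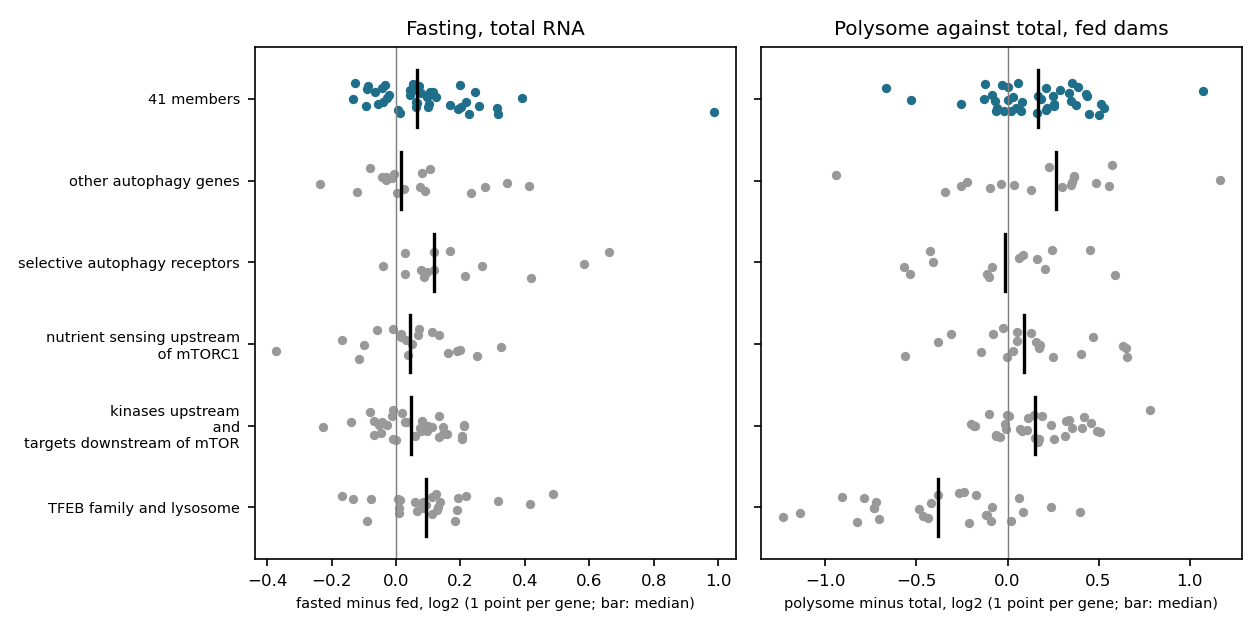
Fasted minus fed in total RNA (left) and polysome minus total RNA in fed dams (right), in log2 on the x axes, for the 41 members and for the tested genes of 5 further lists, with 1 point per gene and a bar at the median. Gabarapl1, at 0.99, is the point farthest to the right on the left side, and the lysosome list has its median at -0.38 on the right side.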

How the data were processed

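The authors deposited 1 linear intensity value per probe and array. The submitters' processing notes name RMA, without a version. Per the labels, guanidine thiocyanate and cesium chloride served to isolate total RNA, and acid phenol and chloroform polysome RNA, and both were column-cleaned, amplified from 100 ng and biotin-labelled. Intensities ran from 3.62 to 21344 and were analysed as log2(intensity + 1). Of 28826 probes, 15209 had 1 gene symbol, 306 had several and 13311 were not listed in the platform annotation. These stood for 14497 genes, of which 494 had several probes and were represented by the brightest. Genes under the 40th percentile of mean log2 over all probes (6.07) were left out, which removed 4323. Other probes of members were also fitted singly, a step added after seeing the data.

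Group means were fitted with limma 3.58.1 (R 4.3.3) on all 12 arrays, with 8 residual and 5.16 prior degrees of freedom, two-sided tests and Benjamini-Hochberg adjustment over the 10174 genes, at a threshold of 0.05. The fit was also run on simulated data with known changes in fasted total RNA alone. That simulation had no correlation within livers and no other differences between groups, so it does not bear on those. The number of arrays limits the precision: the members' median SE was 0.086 log2. Nothing in the labels says what a replicate number marks. Same-numbered total and polysome arrays of a diet deviated together (correlations of 0.154 to 0.362 in 6 pairs, against -0.219 to -0.0227 for other numbers). Between fed and fasted arrays of the same fraction, correlations ran from -0.145 to 0.253 for same numbers. For other numbers they ran from -0.237 to 0.249. Whether same-numbered total and polysome arrays come from the same liver was not tested, and the fits with the liver as a block assume it. Members were named by role, with array values for those called, for at most 4 per contrast and direction, and for the 3 smallest p values where a fasting contrast called none. Array values of Sqstm1 were added after they were seen. The members and lists were chosen with earlier results of these data known. Alternatives were no filter, no pseudocount, centring, quantile normalization, the mean of probes, replicate blocks, trend and robust priors, a fit to only those arrays that are compared, and leaving out arrays. Figures were drawn with matplotlib 3.10.9.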

Additional observations from a re-analysis of the deposited data

How the results depend on the processing

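None of the 40 member differences called changed sign under the alternatives run, while 50 of the 165 not called did under at least 1. These include Rb1cc1 by fasting in polysome RNA (0.16, ranging from -0.06 to 0.21) and Gabarapl2 between fractions in fed livers (-0.06, and 0.35 with the mean of its probes). Gabarapl1 lost its total RNA call with only the arrays compared (limma adjusted p = 0.0559). The number of members called higher by fasting in total RNA was 1, against 2 with trend and robust priors and 0 with only the arrays compared or with the replicate number as a fixed replicate block, and 0 to 1 with single arrays left out. In polysome RNA it was 2, against 1 without a filter, with only the arrays compared and with that block, and 0 to 3 with single arrays left out. Members called lower there numbered 0, against 1 by quantile normalization and 1 with trend and robust priors, 0 to 3 with single arrays left out, and 4 without fed polysome 1 and fasted polysome 2, a pair of arrays left out together after seeing the data. Over all genes, fasting called 105 in total RNA, against 57 without a filter, 42 with only the arrays compared, 5 with the replicate number as a block, 199 without that pair and 17 to 147 with single arrays left out. In polysome RNA it called 205, against 93, 40, 98 and 1263 in the same order, 394 with trend and robust priors and 11 to 755 with single arrays left out. The difference between fasting effects called 0 genes, against 1 with the liver as a fixed block and 2 without that pair. Members higher on polysomes in fasted livers numbered 9 to 18 with single arrays left out, with 9 without fasted polysome 3. With same-numbered arrays taken as 1 liver in a random replicate block (within-liver correlation 0.228), no member call was lost. Gabarapl2 was gained in fasting polysome RNA, and 2 members in fed and 8 in fasted livers between fractions. Of all genes called by fasting in polysome RNA, 79.0% were higher, against 68.4% by quantile normalization and 87.1% with centred arrays. Calls rest on 3 arrays per group, and no member called in a fasting comparison differed by less than 0.40 log2.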
